A study of Mus musculus with 8 samples.

Results

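The genes described here are 34 mouse genes that interferons induce. They were chosen by name for what their products do, with earlier results of these data known. They comprise 7 sensors of viral RNA or of nucleotides, 10 proteins that act directly on virus replication, 6 interferon-inducible GTPases, 3 members of the PARP family, 4 enzymes of ISG15 and ubiquitin and 4 further induced genes. Of the 45101 probe sets on the Affymetrix mouse array, 53 carried the symbol of 1 of these genes and no other. Another 4 carried such a symbol together with others and were not used. The 34 genes stand among 18194 genes measured by a probe set with a sole symbol.

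The 8 arrays fell into 4 groups of 2. OP9 is a mouse bone marrow stromal line, of strain B6C3F1 in the labels, which here carried the red fluorescent protein mStrawberry from a retrovirus and was kept in OptiMEM. For the co-culture, such OP9 cells were incubated for 7 days with 230-238 cells, a mouse pre-B cell line, and the study describes how stroma was recovered afterwards by trypsin, EDTA and sorting on scatter and red fluorescence. The OP9 arrays without pre-B cells served as the control, which the study describes as parallel cultures in conditioned medium. For its morphology and quantitative PCR experiments the study states that this medium was taken from the co-cultures. Such a control would also be exposed to what the co-culture secretes. NIH3T3 is a line of embryonic fibroblasts and MC3T3 an osteoblast-like line, both given as Balb/c in the labels and grown in Dulbecco's medium. All media held fetal calf serum and gentamicin. The labels say of the second MC3T3 array that its RNA was from sorted cells, and of the first that it was from a culture. Between OP9 and either other line, line, strain, medium and the retroviral mStrawberry differed together and cannot be told apart. The conditioned medium that the study describes for the OP9 control differed along with them. NIH3T3 and MC3T3 shared the labelled strain and the medium. The labelled strains were not checked, so the same label does not show the same genetic background. All groups are established lines, and co-culture used 1 pre-B line. The labels number biological replicates without describing separate cultures, so p-values reflect only how far arrays of a group lay apart, a spread that may be technical.

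Type I interferons bind a receptor whose kinases activate transcription factors that bind the interferon-stimulated response element (ISRE) of target genes. Interferon gamma acts through a receptor of its own and the gamma-activated site (GAS). The induced proteins detect foreign RNA, degrade it or block its translation, coat and disrupt the vacuoles of intracellular pathogens, and modify proteins with ISG15, ubiquitin or ADP-ribose. Many of the genes are also expressed at low levels without added interferon.

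The promoters of the genes were examined first, in windows from 250 bases before to 50 bases after the RefSeq start of transcription in build GRCm38.p6. A window was at hand for 26 of the 34 genes. None was in the table for Dhx58, Mx1, Mx2, Iigp1, Parp9, Parp14, Usp18 and Rtp4. The core of the ISRE, searched on both strands as GAAA, any 2 bases and again GAAA, occurred in the windows of 14 of the 26 genes (53.85%) and of 3.993% of all 27025 genes with a window. A longer form, in which CT follows the core and which always contains it, occurred in 9 of the 26 (34.62%) and in 0.303% of all genes. The GAS letters TTCNNNGAA, searched on both strands as well, occurred in 7 of the 26 (26.92%) and in 9.554% of all genes. A match of letters describes the window and does not show that a factor binds there. The stretches below are shown because each holds a match upstream of the start in a gene described further on. Each is written from 5′ to 3′ along the strand of its gene, with the core matches of either strand in capitals and overlapping matches as 1 run.
Ifit1: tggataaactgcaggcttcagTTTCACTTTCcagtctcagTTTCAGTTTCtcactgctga
Ifit3: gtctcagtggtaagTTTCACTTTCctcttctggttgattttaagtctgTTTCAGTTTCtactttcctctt
Bst2: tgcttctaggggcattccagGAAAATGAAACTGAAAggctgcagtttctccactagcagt
Rsad2: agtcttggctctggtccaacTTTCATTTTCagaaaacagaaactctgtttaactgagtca
Oas1a: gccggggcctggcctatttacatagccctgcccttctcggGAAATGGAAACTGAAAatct
Gbp2: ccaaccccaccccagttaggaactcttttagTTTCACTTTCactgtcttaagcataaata
Gbp3: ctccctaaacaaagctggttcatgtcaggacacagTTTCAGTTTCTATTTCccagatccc
Irgm1: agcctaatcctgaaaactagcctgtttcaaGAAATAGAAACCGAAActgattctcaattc
Igtp: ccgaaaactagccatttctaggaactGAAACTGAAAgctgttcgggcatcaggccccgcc
The stretch of Ifit1 lies at chr19:34640764-34640823 on the plus strand and that of Ifit3 at chr19:34583359-34583428 on the plus strand, both of the Ifit gene cluster, and their windows each held 2 separate core matches. That of Bst2 is at chr8:71537563-71537622 on the minus strand, that of Rsad2 at chr12:26456533-26456592 on the minus strand and that of Oas1a at chr5:120907526-120907585 on the minus strand. Those of Gbp2 at chr3:142620573-142620632 on the plus strand and Gbp3 at chr3:142559964-142560023 on the plus strand belong to 1 gene cluster. The stretch of Irgm1 is at chr11:48871421-48871480 on the minus strand and that of Igtp at chr11:58199496-58199555 on the plus strand. The matches in Bst2, Oas1a, Gbp3 and Irgm1 overlap each other, whereas those in Ifit1 and Ifit3 are spaced apart.

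**Figure D1:**
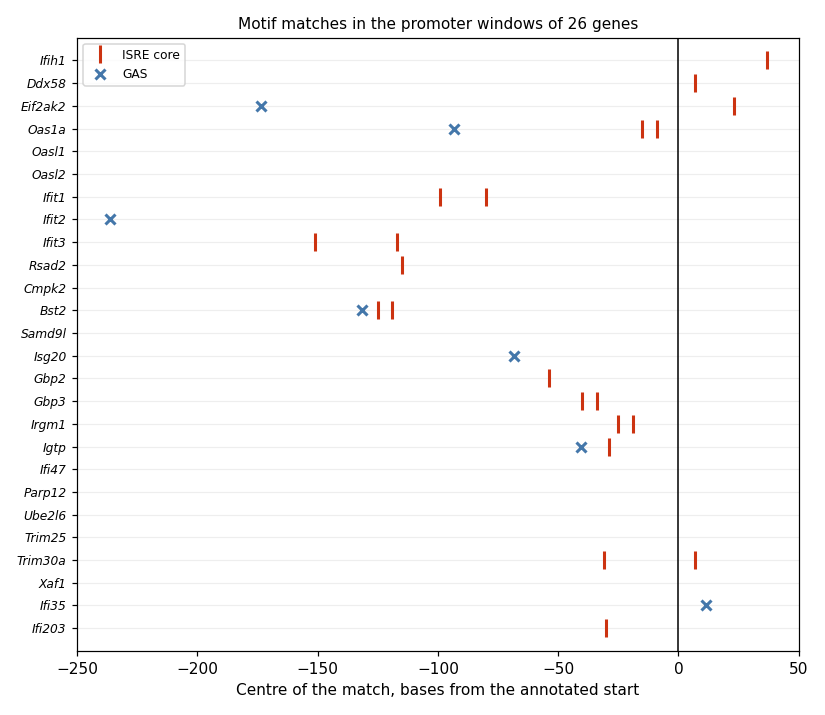
Positions of matches to the ISRE core (red bars) and to the GAS letters (blue crosses) in the promoter windows of the 26 genes with a window, one gene per line. The horizontal axis gives the centre of each match in bases from the annotated start, from 250 before to 50 after it. Of the 26 genes, 14 have an ISRE core match, in Ifih1, Ddx58 and Eif2ak2 after the start and in most others before it.

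On the arrays, values are normalized intensities on a linear scale. A gene was represented by its brightest probe set and was tested if it reached 100 on at least 2 of the 8 arrays, which 10084 genes did. Calls required both an adjusted p below 0.05 in limma and a difference of at least 2-fold. Differences are given on the log2 scale with ± the standard error of the fit. Of the 34 genes, 29 were tested. The probe sets with Mx1, Mx2, Rsad2, Cmpk2 or Ifi203 as their sole symbol stayed below 100 on all 8 arrays. Ifi203 shares 3 further probe sets with related symbols, which could not be assigned to it. Of these, 1 read 48.9 and 54.3 in OP9 cells and 396 and 368 in co-culture, another 31.2 and 36.5 against 236 and 225, and the other stayed below 100. Array medians lay between 41.77 and 44.99. The 7 marrow stroma markers Cxcl12, Vcam1, Pdgfra, Pdgfrb, Kitl, Col1a1 and Col1a2 were all above 100 in OP9 cells with and without co-culture. The osteoblast markers Sp7, Alpl and Ibsp, 3 of the 6 on the list, summed to only 104 to 108 over the 2 MC3T3 arrays, no higher than in the other lines.

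In co-culture with 230-238 cells, 20 of the 29 tested genes were called higher than in OP9 cells and none lower. Over all genes tested, 2.71% were called higher and 2.97% lower. The median difference of the 29 genes was 1.57, with a range from 0.17 to 3.55, and the median over all tested genes was -0.05. Genes that pass the filter only through the co-culture arrays had to differ, and this was so for Dhx58, Oasl2, Ifit1, Gbp3, Iigp1, Parp14 and Ube2l6. With the filter applied to the 6 other arrays, an alternative chosen after seeing the data, 13 of 22 genes were called higher, and none lower, against 2.2% and 3.01% of all genes so tested. With no filter, 20 of all 34 genes were called higher and none lower, against 1.71% and 1.8% of all genes, and the median of the 34 was 1.26 against 0.03 over all genes. Both co-culture arrays lay above both OP9 arrays for 32 of the 34 genes, all but Mx1 and Cmpk2, where 33.8% of all tested genes did so. They lay above all 6 other arrays for 23 of the 34, where 14.6% of all tested genes did so. Both shares are over tested genes, whereas the 34 include genes below the filter. Of the 29 tested genes, all 29 had both co-culture arrays above both OP9 arrays. In bulk RNA a change in the share of responding cells and a change in RNA per cell cannot be told apart.

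**Figure D2:**
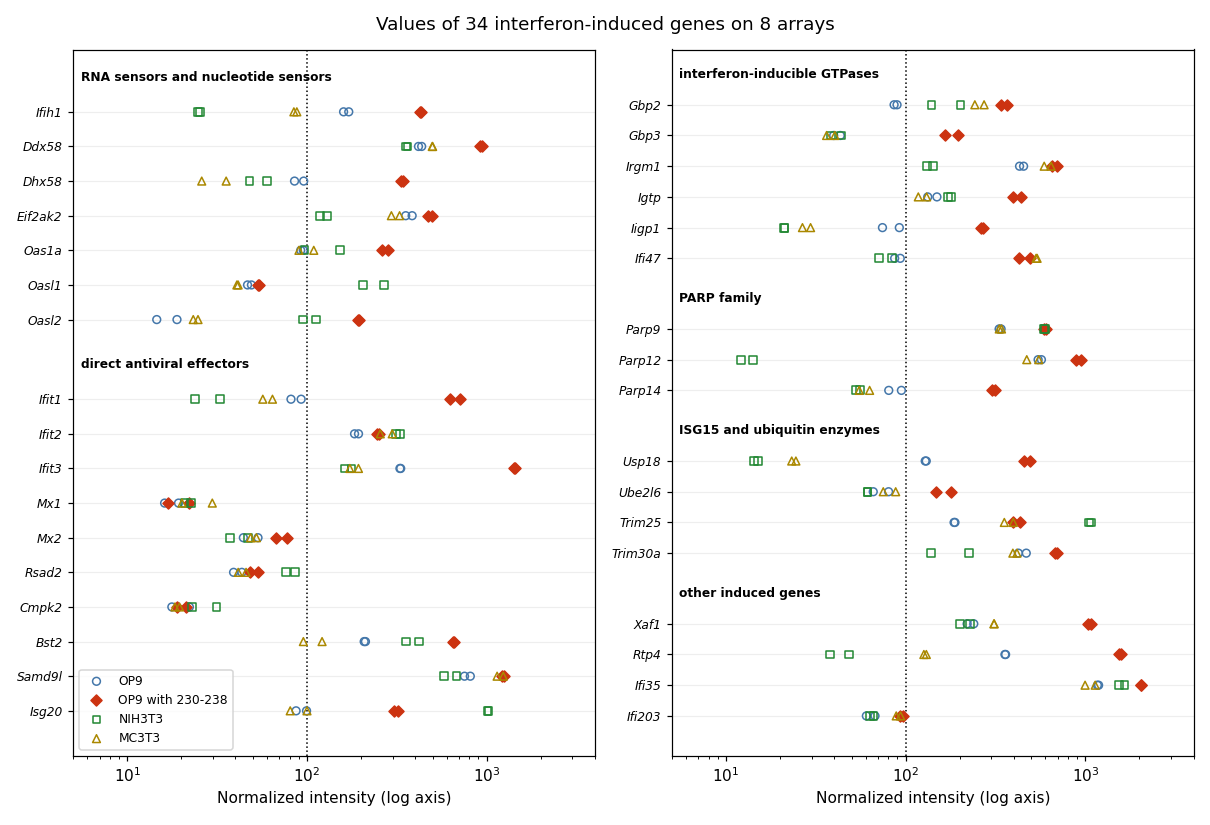
Normalized intensity (log axis) of the 34 genes on each of the 8 arrays, grouped by the role of the product. Blue circles are OP9, red diamonds OP9 co-cultured with 230-238 cells, green squares NIH3T3 and yellow triangles MC3T3, 2 arrays each, and the dotted line marks 100. The red diamonds lie right of both blue circles for 32 genes and right of all other symbols for 23.

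**Figure D3:**
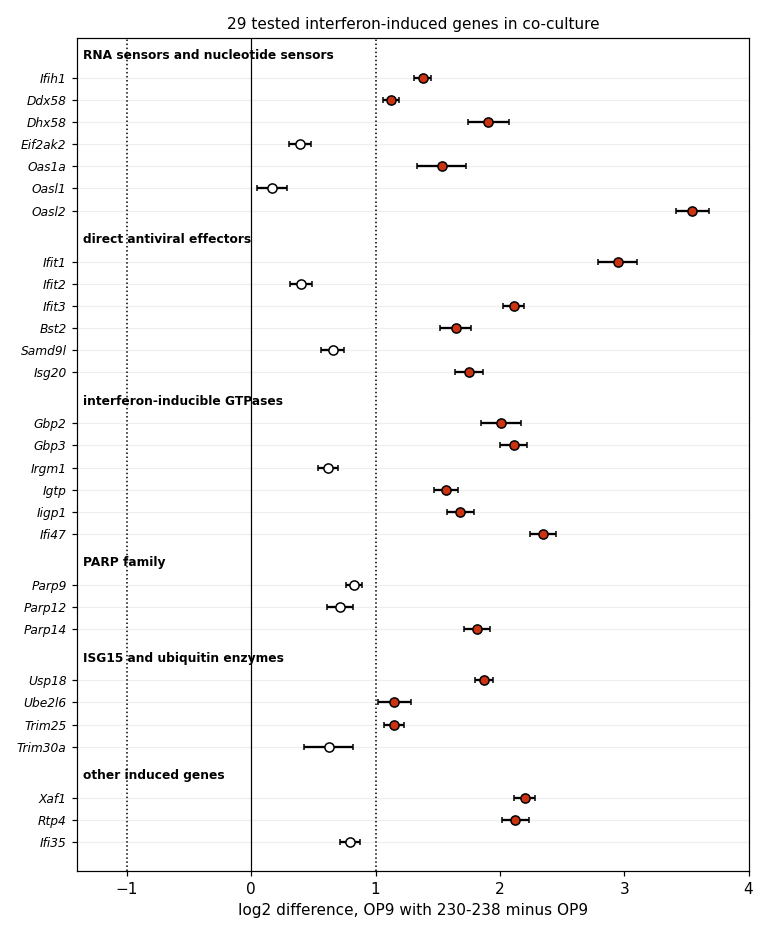
Difference between co-cultured and control OP9 cells (log2 scale, horizontal axis) for the 29 tested genes, by role. Points are the limma estimates from 2 arrays per group, bars their standard errors, filled points the 20 genes called higher, and dotted lines mark 2-fold in either direction. All 29 points lie right of 0, from 0.17 for Oasl1 to 3.55 for Oasl2.

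Markers of B-lineage cells and leukocytes were also mostly higher on the co-culture arrays than on the OP9 arrays. Among pre-B markers, 13 of the 15 listed had a probe set. Their summed value was 392 to 419.7 in OP9 cells and 562 to 583 in co-culture, but 659.7 to 683.2 in NIH3T3 cells. In NIH3T3 cells Blnk read 132 and 232 and Igll1 144 and 102, so the sum does not measure B-lineage RNA alone. For 10 of the 13 both co-culture arrays were above both control arrays, where 33.8% of all tested genes did so. Only 2 of the 13 were themselves tested, so the bases of these shares differ. None of the 13 reached 100 in co-culture. The surrogate light chain gene Vpreb1 read 25.8 and 21.6 in OP9 cells and 77.7 and 76.05 in co-culture. The 9 leukocyte markers were all higher on both co-culture arrays than in OP9 cells and summed to 361 to 369.5 against 611 to 626. In NIH3T3 cells they summed to 423.1 to 505.6. Coro1a, an actin-binding protein of leukocytes, read 25.9 and 23.9 against 116 and 125 and was called higher. It passed the filter only through the co-culture arrays and so had to differ. The phosphatase gene Ptprc (CD45) read 8.93 and 8.58 against 34.6 and 31.1. Markers of macrophages and dendritic cells, 11 with a probe set, summed to 581 to 637 against 690.4 to 707, and to 1137.5 to 1146.6 in NIH3T3 cells. For 3 of the 11 both co-culture arrays were above both control arrays, where 33.8% of all tested genes did so. Here too the bases differ, as 3 of the 11 were tested. Of the macrophage markers Cd14 read 134 and 144 against 251 and 252, and Lyz2, a macrophage lysozyme, was lower in co-culture (-0.89 ± 0.10, adjusted p = 0.000322), both by less than 2-fold. The 5 endothelial markers summed to 110.4 to 111 against 107 to 115, and none reached 100 in co-culture. The part of RNA from other cells in the differences of the interferon-induced genes was not tested.

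The sensors of viral RNA comprise the helicases Ifih1 (MDA5), Ddx58 (RIG-I) and Dhx58 (LGP2), the RNA-activated kinase Eif2ak2 (PKR), and the oligoadenylate synthetase family, in which Oas1a makes the activator of an RNase and Oasl1 and Oasl2 are related proteins. Of these 7 genes 5 were called higher in co-culture, where 2.71% of all tested genes were. Among the 5, Oasl2 and Dhx58 passed the filter only through the co-culture arrays. Oasl2 gave the largest fitted difference of the 29 tested genes, with 18.9 and 14.6 in OP9 cells, 193 and 195 in co-culture, 95.2 and 112 in NIH3T3 and 23.3 and 24.7 in MC3T3 cells. The co-culture arrays stood above all others and the NIH3T3 arrays came next, and the difference between co-culture and OP9 was 3.55 ± 0.13 (11.7-fold, adjusted p = 2.66e-06). Its OP9 values lie near the bottom of the scale, where background compresses ratios, so this fold is not an exact size. Dhx58 read 95.9 and 85.3 in OP9 cells and 335 and 344 in co-culture, a difference of 1.91 ± 0.16 (adjusted p = 0.000108), and 47.9 and 59.9 in NIH3T3 and 35.5 and 25.95 in MC3T3 cells. The 3 lines did not overlap each other for this gene, in the order OP9, NIH3T3, MC3T3.

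Oas1a read 95.4 and 92.3 in OP9 cells, 281 and 262 in co-culture, 96.8 and 153 in NIH3T3 and 109 and 90.2 in MC3T3 cells. Among the lines, MC3T3 overlapped both others, and co-culture exceeded OP9 by 1.53 ± 0.20 (adjusted p = 0.000748). Ifih1 read 159.9 and 171 in OP9 cells, 428 and 431 in co-culture, 24.7 and 25.4 in NIH3T3 and 87.8 and 84.6 in MC3T3 cells. All 4 groups were apart, with a difference of 1.38 ± 0.07 in co-culture (adjusted p = 8.19e-06). Ddx58 rose by 1.13 ± 0.06 (adjusted p = 1.59e-05), from 435 and 418 to 916 and 943, and its values in the other lines lay within 2-fold of OP9, at 363 and 357 in NIH3T3 and 498 and 501 in MC3T3 cells. The remaining pair of sensors was not called. Eif2ak2 went from 355 and 385 to 471 and 499 (0.39 ± 0.09, adjusted p = 0.00964), which is below 2-fold. Oasl1 read 46.7 and 49.1 against 53.6 and 53.9 (0.17 ± 0.12, adjusted p = 0.295) and was the only one of the 29 genes above an adjusted p of 0.05.

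Of the 10 direct effectors, 6 were tested and 4 were called higher in co-culture, where 2.71% of all tested genes were. Among the 4, Ifit1 passed the filter only through the co-culture arrays. The IFIT proteins bind viral RNA and hinder its translation, and their genes differed among themselves. Ifit1, whose promoter stretch above holds a pair of core matches, read 81.5 and 92.8 in OP9 cells, 629 and 714 in co-culture, 23.8 and 32.7 in NIH3T3 and 64.3 and 56.8 in MC3T3 cells. Co-culture was far above the lines, whose arrays did not overlap each other, and the difference from OP9 was 2.95 ± 0.16 (7.71-fold, adjusted p = 1.17e-05). Ifit3, with a like pair of matches, read 332 and 329 in OP9 cells, 1441 and 1413 in co-culture, 177 and 162 in NIH3T3 and 173 and 193 in MC3T3 cells. OP9 arrays stood above the other lines, which overlapped each other, and co-culture was 4.31-fold above OP9 (2.11 ± 0.08, adjusted p = 2.89e-06). Ifit2, with no core match in its window, was not called. It read 184 and 194 in OP9 cells and 246 and 252 in co-culture (0.40 ± 0.09, adjusted p = 0.00886), and the NIH3T3 and MC3T3 arrays were higher than all of these, at 329 and 314 in NIH3T3 and 256 and 298 in MC3T3 cells.

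Bst2 (tetherin), which holds budding virus at the cell surface, read 212 and 208 in OP9 cells, 662 and 650.4 in co-culture, 355 and 421 in NIH3T3 and 121 and 95.5 in MC3T3 cells. The groups did not overlap, and co-culture exceeded OP9 by 1.64 ± 0.13 (adjusted p = 6.43e-05). Isg20, an RNA exonuclease, read 86.96 and 99.5 in OP9 cells and 319.6 and 307 in co-culture, a difference of 1.75 ± 0.11 (adjusted p = 2.81e-05). NIH3T3 cells, at 1023 and 1011, were higher still for Isg20, and MC3T3 cells overlapped OP9 at 80.7 and 100.02. Samd9l, an antiviral protein, read 811 and 753 against 1245 and 1214 in co-culture (0.65 ± 0.10, adjusted p = 0.00142) and was not called. The 4 effectors below the filter include genes often used as interferon reporters. Mx1, a dynamin-like GTPase that traps viral nucleocapsids, read 16.1 and 19.3 in OP9 cells and 16.9 and 22.2 in co-culture, and the arrays overlapped. For its relative Mx2 the values were 44.3 and 53.4 in OP9 cells against 77.1 and 67.1 in co-culture, without overlap. Rsad2 (viperin), an enzyme that makes a chain-terminating nucleotide, read 39.03 and 43.4 against 53.4 and 48.2, also without overlap, and its NIH3T3 arrays were higher at 76.4 and 86.1. Cmpk2, a nucleotide kinase encoded beside it, read 22.2 and 17.7 against 19.02 and 21.1, with overlap. At such values near the bottom of the scale, background signal compresses ratios, so these values do not show that the transcripts were equal.

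The interferon-inducible GTPases act on the membranes of vacuoles that hold pathogens. Of the 6 genes 5 were called higher in co-culture, where 2.71% of all tested genes were. Among the 5, Gbp3 and Iigp1 passed the filter only through the co-culture arrays. Ifi47 read 86.8 and 93.2 in OP9 cells, 491 and 426 in co-culture, 70.9 and 83.8 in NIH3T3 and 539 and 532 in MC3T3 cells. Co-culture and MC3T3 were both high, MC3T3 highest, and co-culture exceeded OP9 by 2.35 ± 0.11 (5.08-fold, adjusted p = 5.77e-06). Gbp3, a guanylate-binding protein, read 43.2 and 39.7 in OP9 cells, 165 and 194 in co-culture, 38.3 and 43.5 in NIH3T3 and 36.3 and 40.3 in MC3T3 cells. The arrays of the 3 lines overlapped, and the difference in co-culture was 2.11 ± 0.11 (adjusted p = 1.13e-05). Its neighbour Gbp2 read 86.2 and 89.5 in OP9 cells and 339 and 368 in co-culture (2.01 ± 0.16, adjusted p = 8.28e-05), with 139 and 202 in NIH3T3 and 273 and 243 in MC3T3 cells. OP9 was the lowest of the 4 groups for Gbp2. This value came from a probe set of the kind that can bind related transcripts, and the other probe set of Gbp2 gave 2.04.

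Igtp (IRGM3) read 133 and 149 in OP9 cells and 438 and 396 in co-culture, a difference of 1.57 ± 0.09 (adjusted p = 2.12e-05), and 178 and 171 in NIH3T3 and 131 and 118 in MC3T3 cells. Iigp1 (IRGA6), an effector GTPase, read 92.1 and 74.2 in OP9 cells and 269 and 261 in co-culture (1.68 ± 0.11, adjusted p = 2.8e-05), and 21.00 and 21.1 in NIH3T3 and 29.5 and 26.6 in MC3T3 cells. Both genes were highest on the co-culture arrays. Irgm1, a regulator of the other GTPases, has overlapping core matches in its promoter and was not called, with 430.3 and 453 in OP9 cells against 655 and 697 in co-culture (0.61 ± 0.08, adjusted p = 0.000842).

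PARP family members transfer ADP-ribose to proteins, and 1 of the 3 here was called. That gene, Parp14, passed the filter only through the co-culture arrays. Parp14 read 94.6 and 80.5 in OP9 cells, 313 and 301 in co-culture, 55.8 and 52.6 in NIH3T3 and 55.1 and 62.95 in MC3T3 cells. The co-culture arrays were above all others, by 1.82 ± 0.10 relative to OP9 (adjusted p = 1.56e-05). Parp12 went from 569 and 546 to 883 and 948 (0.71 ± 0.11, adjusted p = 0.00147) and Parp9 from 331 and 339.6 to 605 and 585 (0.83 ± 0.06, adjusted p = 6.6e-05), both below 2-fold and both without overlap. Of 12 other PARP genes that were tested, none was called in co-culture, where 2.71% of all tested genes were called higher. Their median difference was 0.07. With no minimum fold 3 of them were higher and 3 lower, and Parp8, at 0.79 ± 0.19 (adjusted p = 0.0143), lay between Parp12 and Parp9. The 12 include Parp11, which is also on the list of other interferon-induced genes below.

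ISG15 is a ubiquitin-like protein that Ube2l6 passes on as its conjugating enzyme and that the protease Usp18 removes. Usp18 also damps signalling from the type I receptor. Usp18 read 130.1 and 128 in OP9 cells, 458 and 491 in co-culture, 15.1 and 14.2 in NIH3T3 and 24.5 and 23.2 in MC3T3 cells. All 4 groups were apart, and co-culture exceeded OP9 by 1.87 ± 0.07 (adjusted p = 2.89e-06). Ube2l6 went from 65.95 and 80.3 to 178 and 147 (1.15 ± 0.13, adjusted p = 0.000462), with NIH3T3 cells just below OP9 at 61.2 and 61.3 and MC3T3 cells overlapping it at 87.9 and 75.00. Trim25, the ubiquitin ligase that activates RIG-I, rose from 188 and 186 to 434 and 394 (1.15 ± 0.08, adjusted p = 5.08e-05), and MC3T3 cells read 354 and 397 and NIH3T3 cells 1079 and 1051. The co-culture arrays overlapped those of MC3T3 cells and lay below those of NIH3T3 cells. Trim30a, a negative regulator of Toll-like receptor signalling, was not called, with 469 and 424 against 677 and 695 (0.62 ± 0.20, adjusted p = 0.0383).

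Among the further induced genes, Rtp4, a receptor-transporting protein with antiviral activity, read 357 and 359.8 in OP9 cells, 1584 and 1539.9 in co-culture, 38.02 and 48.5 in NIH3T3 and 130.3 and 126 in MC3T3 cells. The order was co-culture, OP9, MC3T3, NIH3T3 with no overlap, and co-culture exceeded OP9 by 2.12 ± 0.11 (adjusted p = 1.05e-05). Xaf1, a pro-apoptotic antagonist of XIAP, read 219.7 and 239 in OP9 cells, 1072 and 1036 in co-culture, 201 and 229 in NIH3T3 and 310.4 and 310.3 in MC3T3 cells. Its co-culture arrays were 4.59-fold above OP9 (2.20 ± 0.09, adjusted p = 2.93e-06). Ifi35, a cytosolic interferon-induced protein, read 1185 and 1167 against 2041 and 2035 (0.79 ± 0.08, adjusted p = 0.000273) and was not called, and Ifi203, a PYHIN protein below the filter, read 67.5 and 60.4 against 96.00 and 92.6 without overlap.

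The 9 tested genes that were not called in co-culture were Eif2ak2, Oasl1, Ifit2, Samd9l, Irgm1, Parp9, Parp12, Trim30a and Ifi35. With no minimum fold, 28 of the 29 tested genes had a higher value at an adjusted p below 0.05, against 16.6% of all genes. At 4-fold or more, 8 genes were called higher, against 0.684% of all genes. The 12 tested genes with an ISRE core match had a median difference of 1.55, and 9 of them were called higher. For the 11 tested genes whose window held no such match the median was 1.15, with 6 called higher. Ifit1 and Gbp3 with a match, and Oasl2 and Ube2l6 without, passed the filter only through the co-culture arrays and so had to differ. Rsad2 and Ifi203 with a match, and Cmpk2 without, were below the filter. Over all tested genes 2.71% were called higher. The difference between genes with and without a match was not tested.

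Several probe sets measured the same gene for 13 of the 34, with 32 probe sets between them. In co-culture all 53 probe sets of the 34 genes, used for the level or not, had a difference above 0. The sizes varied. The 3 probe sets of Dhx58 gave 1.91, 1.63 and 0.17, those of Ddx58 1.41, 1.13 and 0.49, the pair of Xaf1 2.20 and 0.53, and the pair of Parp14 1.81 and 0.77. In the comparisons of lines the direction was less uniform, and probe sets of a gene shared it for 8 of the 13 between OP9 and NIH3T3 cells, for 9 between OP9 and MC3T3 cells and for 7 between MC3T3 and NIH3T3 cells.

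The lines themselves differed in these genes, with calls on either side. Relative to NIH3T3, OP9 cells had higher values of 9 of the 29 tested genes (31%) and lower values of 4 (13.8%), against 20.5% and 10.3% of all genes tested. Between OP9 and MC3T3 cells, 4 were higher in OP9 (13.8%) and 3 lower (10.3%), against 10.5% and 9.41%. Between MC3T3 and NIH3T3 cells, 8 were higher in MC3T3 (27.6%) and 5 lower (17.2%), against 17.8% and 9.65%. With 29 genes, these shares were not far from those of all genes and are not a result about the group. The median differences of the 29 genes were 0.24, 0.13 and 0.41 in these comparisons, and those of all genes 0.16, 0.03 and 0.12. With no minimum fold, OP9 was higher than NIH3T3 for 14 genes and lower for 10 (46.2% and 31.7% of all genes), higher than MC3T3 for 10 and lower for 9 (35.6% and 31%), and MC3T3 was higher than NIH3T3 for 15 and lower for 9 (43.8% and 31%). Each pair of these comparisons shares the arrays of a line, and the same OP9 arrays were the control in co-culture. The highest mean of the 3 lines was in OP9 for 12 genes, in NIH3T3 for 10 and in MC3T3 for 7.

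**Figure D4:**
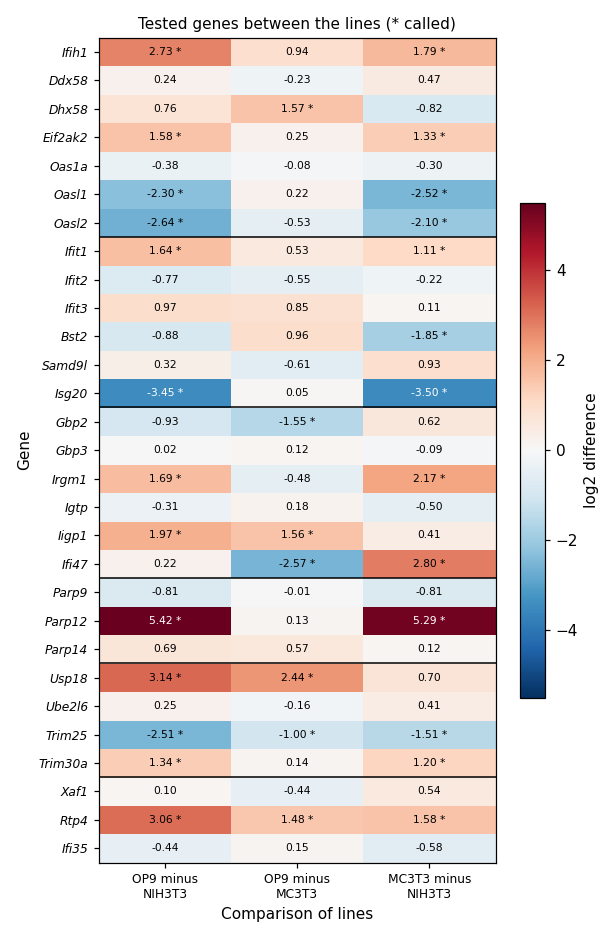
Differences between the lines (log2 scale, colour and printed values) for the 29 tested genes, in the order of their roles, with horizontal lines between roles. Columns are OP9 minus NIH3T3, OP9 minus MC3T3 and MC3T3 minus NIH3T3, from 2 arrays per line, and an asterisk marks a called gene. Red and blue cells stand in the same role, for example 2.73 for Ifih1 and -2.64 for Oasl2 between OP9 and NIH3T3.

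Parp12 had the largest fitted difference between lines. It read 569 and 546 in OP9 and 550.1 and 472 in MC3T3 cells but 14.1 and 12.1 in NIH3T3 cells, near the bottom of the scale, a difference of 5.42 ± 0.11 between OP9 and NIH3T3 (adjusted p = 7.53e-09). OP9 cells were also higher than NIH3T3 cells in Usp18 (3.14 ± 0.07, adjusted p = 1.58e-08), Rtp4 (3.06 ± 0.11, adjusted p = 1.65e-07) and Ifih1 (2.73 ± 0.07, adjusted p = 2.39e-08). For Parp12 and Usp18 the NIH3T3 values were so low that the fitted differences are not exact sizes. For Rtp4 the second probe set gave -0.13 in this comparison. Iigp1 (1.97 ± 0.11), Irgm1 (1.69 ± 0.08), Ifit1 (1.64 ± 0.16), Eif2ak2 (1.58 ± 0.09) and Trim30a (1.34 ± 0.20) completed the genes higher in OP9. Without the first NIH3T3 array Trim30a fell below 2-fold (0.98) and Ifit3 passed it (1.03). For Irgm1 the values were 430.3 and 453 in OP9, 131 and 142 in NIH3T3 and 644 and 590.1 in MC3T3 cells, and they did not overlap. Eif2ak2 read 355 and 385 in OP9, 129 and 118 in NIH3T3 and 295 and 328 in MC3T3 cells. Trim30a read 469 and 424 in OP9, 138 and 226 in NIH3T3 and 416 and 395 in MC3T3 cells. In all of these NIH3T3 was the lowest line.

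The opposite held for 4 genes that were lower in OP9 than in NIH3T3 cells. Isg20 differed by -3.45 ± 0.11 (adjusted p = 1.02e-07), Oasl2 by -2.64 ± 0.13 (adjusted p = 8.73e-07), Trim25 by -2.51 ± 0.08 (adjusted p = 1.07e-07) and Oasl1 by -2.30 ± 0.12 (adjusted p = 1.08e-06). Oasl1 read 206 and 269 in NIH3T3 and 40.7 and 41.4 in MC3T3 cells against 46.7 and 49.1 in OP9 cells. NIH3T3 cells thus had the highest values of the 3 lines in these 4 genes and the lowest in the 9 named before, sensors standing on both sides. The 3 of these genes other than Oasl2, together with Ifit2, had their highest mean of all 4 groups in NIH3T3 cells. The smallest difference between OP9 and NIH3T3 cells was that of Gbp3 (0.02 ± 0.11, adjusted p = 0.867), followed by Xaf1 (0.10 ± 0.09, adjusted p = 0.312), for which the second probe set gave -2.67.

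Between OP9 and MC3T3 cells, Usp18 (2.44 ± 0.07, adjusted p = 8.73e-08), Dhx58 (1.57 ± 0.16, adjusted p = 7.78e-05), Iigp1 (1.56 ± 0.11, adjusted p = 8.55e-06) and Rtp4 (1.48 ± 0.11, adjusted p = 1.22e-05) were higher in OP9 cells. Of the 3 probe sets of Dhx58, 1 gave -0.06 here. Ifi47 (-2.57 ± 0.11, adjusted p = 4.72e-07), Gbp2 (-1.55 ± 0.16, adjusted p = 8.16e-05) and Trim25 (-1.004 ± 0.08, adjusted p = 2.29e-05) were lower in OP9 cells. Trim25 stood just past the 2-fold limit and Bst2, with 0.96 ± 0.13, just inside it. Other probe sets gave -0.92 and -0.83 for Trim25, 0.39 for Rtp4 and 0.92 for Iigp1. With the mean of probe sets Trim25 (-0.92) and Rtp4 (0.94) lost their calls and Trim30a (1.02) gained one. The call of Trim25 was also lost with a pseudocount of 16 and without _x_at and _s_at probe sets. Parp9 (-0.01 ± 0.06) and Isg20 (0.05 ± 0.11) differed least, with arrays that overlapped between these lines. The second probe set of Trim30a, which was not called here, gave 1.90 against 0.14.

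Between MC3T3 and NIH3T3 cells, Parp12 (5.29 ± 0.11, adjusted p = 1.23e-08), Ifi47 (2.80 ± 0.11, adjusted p = 2.58e-07), Irgm1 (2.17 ± 0.08, adjusted p = 2.49e-07), Ifih1 (1.79 ± 0.07, adjusted p = 2.7e-07), Rtp4 (1.58 ± 0.11, adjusted p = 6.51e-06) and Eif2ak2 (1.33 ± 0.09, adjusted p = 4.89e-06) were higher in MC3T3 cells, as were Trim30a (1.20 ± 0.20) and Ifit1 (1.11 ± 0.16). Isg20 (-3.50 ± 0.11, adjusted p = 1.22e-07), Oasl1 (-2.52 ± 0.12, adjusted p = 7.82e-07), Oasl2 (-2.10 ± 0.13, adjusted p = 3.54e-06), Bst2 (-1.85 ± 0.13, adjusted p = 5.74e-06) and Trim25 (-1.51 ± 0.08, adjusted p = 1.85e-06) were lower. Second probe sets of Rtp4 and Trim30a gave differences of -0.52 and -0.46. Without the first NIH3T3 array 6 genes in place of 8 were called higher in MC3T3 cells, Trim30a (0.84) and Ifit1 (0.88) losing their calls, and 6 in place of 4 were called lower in OP9 than in NIH3T3 cells. Gbp3 (-0.09 ± 0.11), Ifit3 (0.11 ± 0.08) and Parp14 (0.12 ± 0.10) differed least.

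Of the 29 tested genes 17 were called in at least 1 comparison of lines and 12 in none. Those 12 were Ddx58, Oas1a, Ifit2, Ifit3, Samd9l, Gbp3, Igtp, Parp9, Parp14, Ube2l6, Xaf1 and Ifi35, and 8 of them were called higher in co-culture. Over all 4 groups the highest mean was in co-culture for 24 genes, in NIH3T3 cells for Oasl1, Ifit2, Isg20 and Trim25, in MC3T3 cells for Ifi47, and in OP9 cells for none. Shares over all tested genes were not counted for these splits. The counts describe the 29 genes and are not a result about the group.

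The rest of the pathway was examined in co-culture through lists of other genes, also chosen with earlier results of these data known. Of 18 interferon genes 9 had a probe set with a sole symbol, and none was tested. Their array values over all 8 arrays lay between 9.5 and 65.7, with Ifnb1 at 20.5 and 22.9 in OP9 cells and 21.97 and 21.3 in co-culture. For 2 of the 9, Ifna1 and Ifnab, both co-culture arrays were above both OP9 arrays, where 33.8% of all tested genes did so. No such share was computed for genes below the filter, where all 9 lay. None of the 5 tested receptor genes was called. Ifnar1 differed by -0.14 ± 0.14 and Ifnar2 by 0.95 ± 0.10, the chains of the type I receptor, and Ifngr1 by 0.90 ± 0.10 and Ifngr2 by 0.59 ± 0.07, those of the gamma receptor.

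Among kinases and transcription factors 3 of 10 were called higher, where 2.71% of all tested genes were, namely Irf7 (1.63 ± 0.20, adjusted p = 0.000548), the regulator of type I interferon genes, Irf1 (1.58 ± 0.08, adjusted p = 7.43e-06), a factor of the gamma response, and Jak2 (1.24 ± 0.07, adjusted p = 1.17e-05), a kinase of the gamma receptor. Stat2 (0.85 ± 0.11) and Irf9 (0.94 ± 0.20), parts of the complex that binds the ISRE, were below 2-fold. Isg15 had no probe set with a sole symbol in the annotation used and is not analysed here. Of 10 inhibitors only Socs3 (1.78 ± 0.11, adjusted p = 2.59e-05), a feedback inhibitor of cytokine receptors, was called higher, with Socs1 at 0.92 ± 0.11, and of 9 adaptors and kinases of the sensing pathways none was called.

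Of 30 other interferon-induced genes that were tested, 12 were called higher, where 2.71% of all tested genes were. The widest differences were those of Psmb8 (3.17 ± 0.08, adjusted p = 5.21e-07), an immunoproteasome subunit, and Slfn2 (2.51 ± 0.10, adjusted p = 3.75e-06), a Schlafen protein, followed by Psmb9 (2.24 ± 0.14, adjusted p = 2.17e-05), another immunoproteasome subunit, and Ifitm1 (1.73 ± 0.23, adjusted p = 0.000959), which acts against virus entry. Ifi204 (1.72 ± 0.13) and Gbp7 (1.72 ± 0.12) came next. Psmb8, Irgm2 and Slfn8, which are among the called genes, passed the filter only through the co-culture arrays and so had to differ. Socs1 and Oas1b, which were not called, passed it in the same way. Over these pathway lists together 16 of 64 tested genes were called higher and none lower, against 2.71% and 2.97% of all genes, with a median of 0.58 against -0.05 over all genes.

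**Figure D5:**
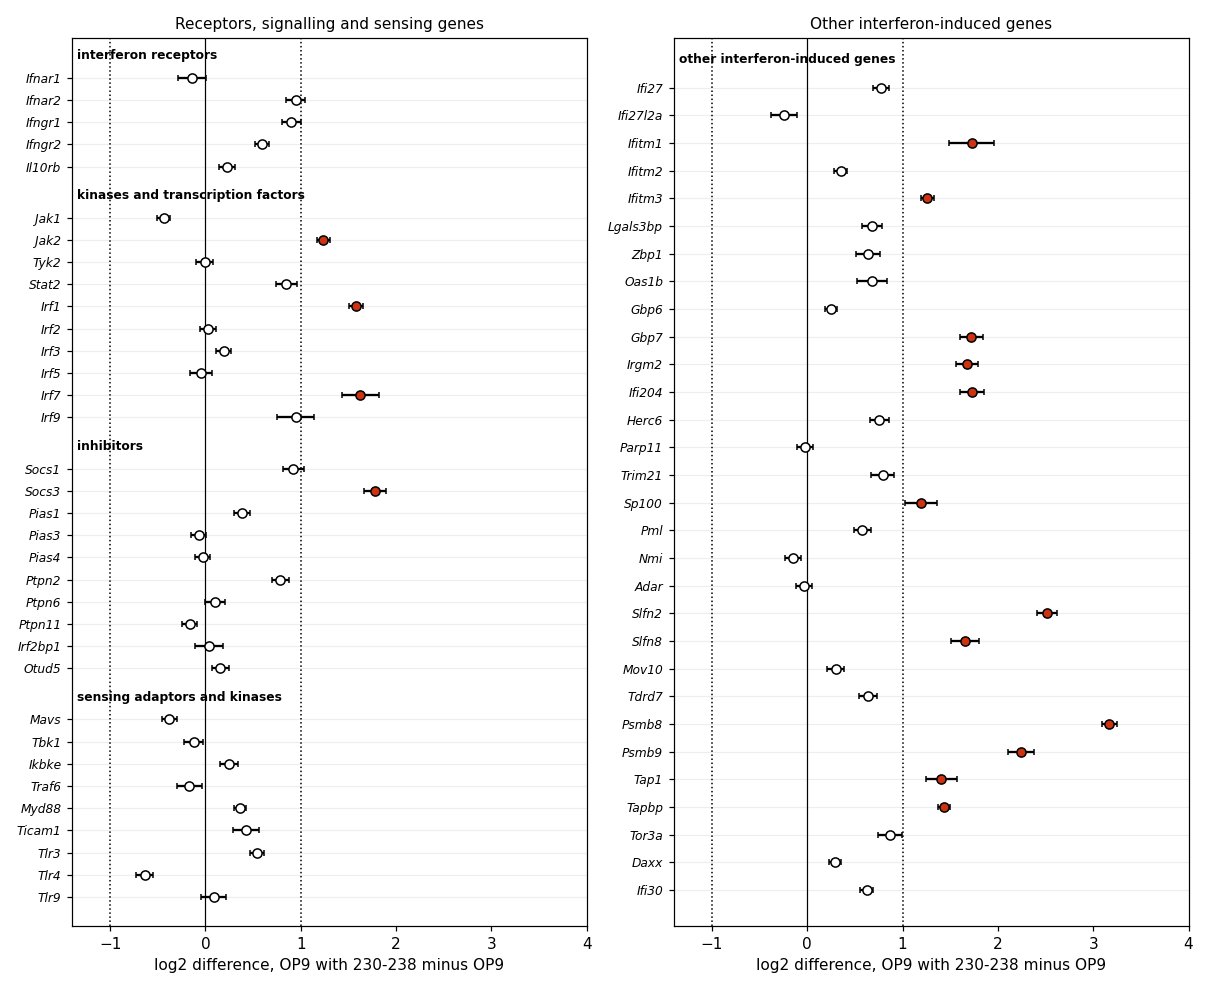
Difference between co-cultured and control OP9 cells (log2 scale, horizontal axis) for the 64 tested genes of the interferon pathway outside the 34, with receptors, signalling and sensing genes on the left and other induced genes on the right. Points are limma estimates from 2 arrays per group, bars their standard errors, filled points the 16 called genes, and dotted lines mark 2-fold in either direction. On the left 4 points are filled (Jak2, Irf1, Irf7 and Socs3), on the right 12.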

How the data were processed

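RNA of 8 Affymetrix mouse arrays was analysed, with 2 arrays in each of 4 groups taken from the sample labels. The deposited values are linear intensities of 45101 probe sets, normalized between arrays by the authors. RMA Express, affylmGUI and dChip are the programs named, and nothing used here says which of them made these values. In the platform annotation 34958 probe sets had 1 symbol, 932 several and 9211 none, and 34754 matched a current gene.

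The log2 of the values was used, without a pseudocount. Each gene was represented by its sole-symbol probe set with the highest mean log2 value over the 8 arrays, and genes at or above 100 on at least 2 arrays were kept. Group means were fitted over all 8 arrays with lmFit and eBayes of limma 3.58.1 in R 4.3.3, with 4 residual degrees of freedom, with Benjamini-Hochberg adjustment over all 10084 genes. Low intensities include background, which compresses ratios, and precision is limited by having 2 arrays a group.

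The members, the lists of related genes and markers, the tests and the rule for named genes were chosen with earlier results of these data known. By that rule all 34 genes are accounted for, with values per array for genes called in co-culture and for those that differed most or least between lines. Promoter windows of RefSeq, build GRCm38.p6, were searched in Python 3.11.15 for 3 motifs. Correlations of replicate deviations between groups lay between -0.004 and 0.181, so that replicate numbers were not taken to pair the arrays. The alternatives are named in the closing section. Arrays of blood cells and the quantitative PCR of the study were not analysed here.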

Additional observations from a re-analysis of the deposited data

How the results depend on the processing

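In co-culture, 20 genes were called higher with no filter, quantile normalization, median scaling, only the 4 arrays compared, a trended robust prior, without _x_at and _s_at probe sets, and without each array in turn (20 to 20), none lower (0 to 0). Counts were 17 at a filter of 200, 19 with a pseudocount of 16, 18 with the mean of probe sets, 8 at 4-fold and 13 with the filter on the 6 other arrays. At 4-fold, 4 genes were higher in OP9 than NIH3T3, 1 higher and 1 lower than in MC3T3, and 3 higher and 3 lower in MC3T3 than NIH3T3. With no minimum fold these counts were 14 higher and 10 lower, 10 and 9, and 15 and 9. Without 1 array, OP9 against NIH3T3 gave 9 to 9 higher (Ifit3 in place of Trim30a without NIH3T3 replicate 1) and 4 to 6 lower, OP9 against MC3T3 4 to 5 and 2 to 3, and MC3T3 against NIH3T3 6 to 9 and 5 to 6. Quantile normalization moved the median of all genes from 0.16 to 0.01 between OP9 and NIH3T3, with 6 genes lower, as with the mean of probe sets. Directions turned only for Xaf1 between OP9 and NIH3T3 (-0.10 under quantile normalization, -1.28, adjusted p = 2.43e-05, with the mean of probe sets) and MC3T3 and NIH3T3 (-0.94), and for small differences. These were Gbp3 (0.002) and Ifit3 (-0.048) under quantile normalization and Parp14 (-0.143) with the mean of probe sets between MC3T3 and NIH3T3, and, without 1 array, Gbp3 in OP9 against NIH3T3 (-0.069 to 0.112), Parp9 (-0.026 to 0.016), Isg20 (-0.105 to 0.205) and Oas1a (-0.217 to 0.057) in OP9 against MC3T3, and Oas1a in MC3T3 against NIH3T3 (-0.627 to 0.035). The replicate block changed no count, with 20 genes higher in co-culture. The causes were not tested.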
